A study of Homo sapiens with 32 samples.

Results

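Long 3′ UTRs, here those of more than 2000 nt, were described for their crosslinks to Alyref, Chtop and Nxf1, which act in mRNA export. A member was the 3′ UTR of the canonical transcript of a protein-coding gene, lying wholly in the last exon, and its tags were counted from 200 nt beyond the stop codon to the transcript end. This gave 5635 of the 19589 canonical transcripts with a 3′ UTR in the GRCh37 (hg19) annotation. The 7098 UTRs of 500 to 2000 nt in the last exon, called medium UTRs, served as the comparison. The members had a median length of 3352 nt (quartiles 2573 and 4787 nt, range 2001 to 32870 nt) and covered 21.9 Mb of counted sequence, while their coding sequences (CDS) covered 10.6 Mb. They were chosen by length alone, without use of any tag.

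The measurement was iCLIP, in which UV light links a protein to the RNA it touches, the protein is purified and the linked base is read from the point where reverse transcription stops. A tag is 1 deduplicated read whose stop marks 1 crosslinked base. All samples came from HEK293T FlpIn cells, a human embryonic kidney line with a single engineered integration site. FLAG-Alyref and FLAG-Chtop cells received tetracycline at 10 ng/mL and FLAG-Nxf1 cells at 5 ng/mL, both for 48 h, and the Control cells carried an empty FLAG construct. Each of the 4 groups held 3 libraries purified with the same anti-FLAG antibody, called here library 1, 2 and 3. The sources used here do not say whether libraries came from separate cultures or whether the Control cells were induced, so p-values measure only the spread between libraries. The tagged transgenes of 1 engineered line limit the groups as a model of the endogenous proteins, and no RNA levels were analysed, so a high tag density and an abundant transcript cannot be told apart. Setting a 3′ UTR against its own CDS compares tags of the same gene, but which 3′ end isoforms were present was not measured.

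The 3′ UTR is the untranslated stretch between the stop codon and the poly(A) tail, and it carries the sites read by RNA-binding proteins and microRNAs. Long 3′ UTRs often hold several cleavage and polyadenylation signals, of which AATAAA is the canonical form, and use of a signal upstream of the annotated end gives a shorter mRNA. Alyref and Chtop are subunits or partners of the TREX complex, which is loaded onto mRNA in the nucleus and hands it to Nxf1, the export receptor that carries it through the nuclear pore.

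Some of the bases of long 3′ UTRs with most tags over the 9 factor libraries show what single crosslink sites in these UTRs looked like. The 5 windows of 25 nt are given 5′ to 3′ on the transcript strand in GRCh37, at most 1 per UTR and each with tags in at least 3 of the 9 libraries. The capital is the crosslinked base.
LPCAT1: ttatttataggcCttttttttttta
DDX3X: gtttagttgtgtGtttttttttttt
IRS4: tctgtatagtgtTtatatatatatg
SEC14L2: ggtgtttgccagTctgagtgtcccg
GPI: ttttttgacaacTtttttttttttt
The LPCAT1 window is chr5:1463124-1463148 (−), and its base held 15 tags in 4 of 9 factor libraries, and the DDX3X window is chrX:41209141-41209165 (+) with 13 tags in 3 libraries. The IRS4 window is chrX:107963243-107963267 (−) with 13 tags in 5 libraries. In the LPCAT1, DDX3X and GPI windows the base stood at the edge of a run of T (U in the RNA). The SEC14L2 window is chr22:30819297-30819321 (+) with 12 tags in 7 libraries, and it was the only one of the 5 with Control tags, at 0, 1 and 2 in the 3 Control libraries. The GPI window is chr19:34891943-34891967 (+) with 11 tags in 4 libraries. Such bases were rare, since 98.6% of the library positions with a tag in long 3′ UTRs held 1 tag only.

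Depth differed widely within groups, and library 1 was the shallowest of each group. Total tags were 81307, 631704 and 603291 with Alyref, 47052, 538844 and 429573 with Chtop, 8134, 119191 and 179346 with Nxf1, and 7017, 46628 and 36978 with Control. A count of 0 in a UTR therefore allowed up to 3 tags, or 4.76 per 1000000 nuclear tags in the deepest library and 429 in the shallowest. Intervals and floors cover counting error only. In Nxf1 library 1 and Control library 1 the share of U peaked at the base 2 nt before the annotated crosslink (63.9% and 73.5%) instead of at it as in the other 10 libraries, so a difference between groups in a per-library measure that moved by over 1.5 times without 1 of these libraries is also given without it. By the sample titles, library 2 of every group was read in other HiSeq lane runs than libraries 1 and 3. Library 2 and its lane runs thus cannot be told apart. Library 3 had fewer lane runs than libraries 1 and 2.

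Long 3′ UTRs held 238171 tags over the 12 libraries. Tags in them numbered 4751, 39967 and 35258 with Alyref, 4099, 68660 and 65514 with Chtop, 903, 9324 and 6967 with Nxf1, and 393, 1485 and 850 with Control. At least 1 tag was found in 4358 members (77.3%) with Alyref, 4446 (78.9%) with Chtop, 3482 (61.8%) with Nxf1 and 1525 (27.1%) with Control. All 3 factors had a tag in 3356 members (59.6%), and 962 members had none in any library. The tags were unevenly spread, since 627 UTRs (11.1%) held 50% of them. A total of 3570 members (63.4%) reached 10 tags and 622 reached 100 tags.

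The density of tags, in tags per kb per 1000000 nuclear tags (TPKM) and averaged over the 9 factor libraries, had a median of 1.84 and reached 529 in IRS4. IRS4, an insulin receptor substrate that is strongly expressed in this cell line, has a 3′ UTR of 2573 nt (chrX:107963176-107965748, −) that overlaps another gene on its strand, and the shared bases were not counted. Its UTR held 54, 372 and 328 Alyref tags, 67, 783 and 913 Chtop tags, 23, 32 and 35 Nxf1 tags and 3, 7 and 4 Control tags. In TPKM these were 313, 278 and 256 with Alyref, 672, 685 and 1001 with Chtop, 1336, 127 and 92.2 with Nxf1 and 202, 71.1 and 51.2 with Control. The Chtop libraries lay above the Alyref libraries and both above Control, and Nxf1 libraries 2 and 3 lay below Control library 1. DDX17, an RNA helicase (chr22:38879443-38881939, −), came next at 163 TPKM, with 27, 163 and 119 Alyref tags, 26, 234 and 247 Chtop tags, 5, 31 and 23 Nxf1 tags and 1, 6 and 1 Control tags. SRSF11, an SR-type splicing factor (chr1:70716489-70718735, +), followed at 134 TPKM, with 14, 114 and 114 Alyref tags and 15, 210 and 277 Chtop tags against 4, 6 and 4 with Nxf1 and 2, 2 and 0 with Control. In SRSF11 the Nxf1 tag counts lay close to those of Control although the 2 deeper Nxf1 libraries held more tags in all. The densest 12 members also included GOLGA8A (98.9 TPKM), OGT (91.2), RCC2 (87.2), TNFRSF10B (84.2), GOLGA8B (77.0), GIGYF1 (75.5), STX16 (74.4) and OGA (69.3). OGT and OGA, the enzymes that add and remove O-linked N-acetylglucosamine, were both in this set. The order leaned on the shallow Nxf1 library 1, where 4 tags put RCC2 at 232 TPKM. Without that library, an alternative chosen after seeing the data, 11 of the 12 stayed among the densest 12, the first 3 kept their places, RCC2 stood at 69.1 TPKM, below STX16 (78.7) and GIGYF1 (77.2), and OGA (60.8) made way for SLFN11 (68.5). GOLGA8A and GOLGA8B are near-identical golgin copies whose reads cannot be assigned with confidence, so their values are uncertain.

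The share of a library's nuclear tags that fell in long 3′ UTRs was highest for Chtop. It was 5.86, 6.34 and 5.85% in the Alyref libraries, 8.73, 12.8 and 15.3% in Chtop, 11.1, 7.87 and 3.90% in Nxf1 and 5.62, 3.20 and 2.31% in Control. All Chtop libraries were above all Alyref and Control libraries, but Nxf1 library 1, with an exact 95% binomial interval of 10.5 to 11.8%, exceeded Chtop library 1. The group means were 6.02% ± 0.280 with Alyref, 12.3% ± 3.30 with Chtop, 7.63% ± 3.63 with Nxf1 and 3.71% ± 1.71 with Control (SD, n = 3 each). Chtop exceeded the mean of the 6 libraries of the other factors by 5.43 percentage points (two-sided exact permutation p = 0.0238, Benjamini-Hochberg adjusted p = 0.114 over the 24 factor comparisons of 8 measures). With 3 libraries against 6 the smallest p this test can give is 0.0119, and with 3 against 3 it is 0.1. Alyref and Chtop lay above Control without overlap, by 2.31 and 8.54 points (exact permutation p = 0.1 each, the smallest possible).

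**Figure D1:**
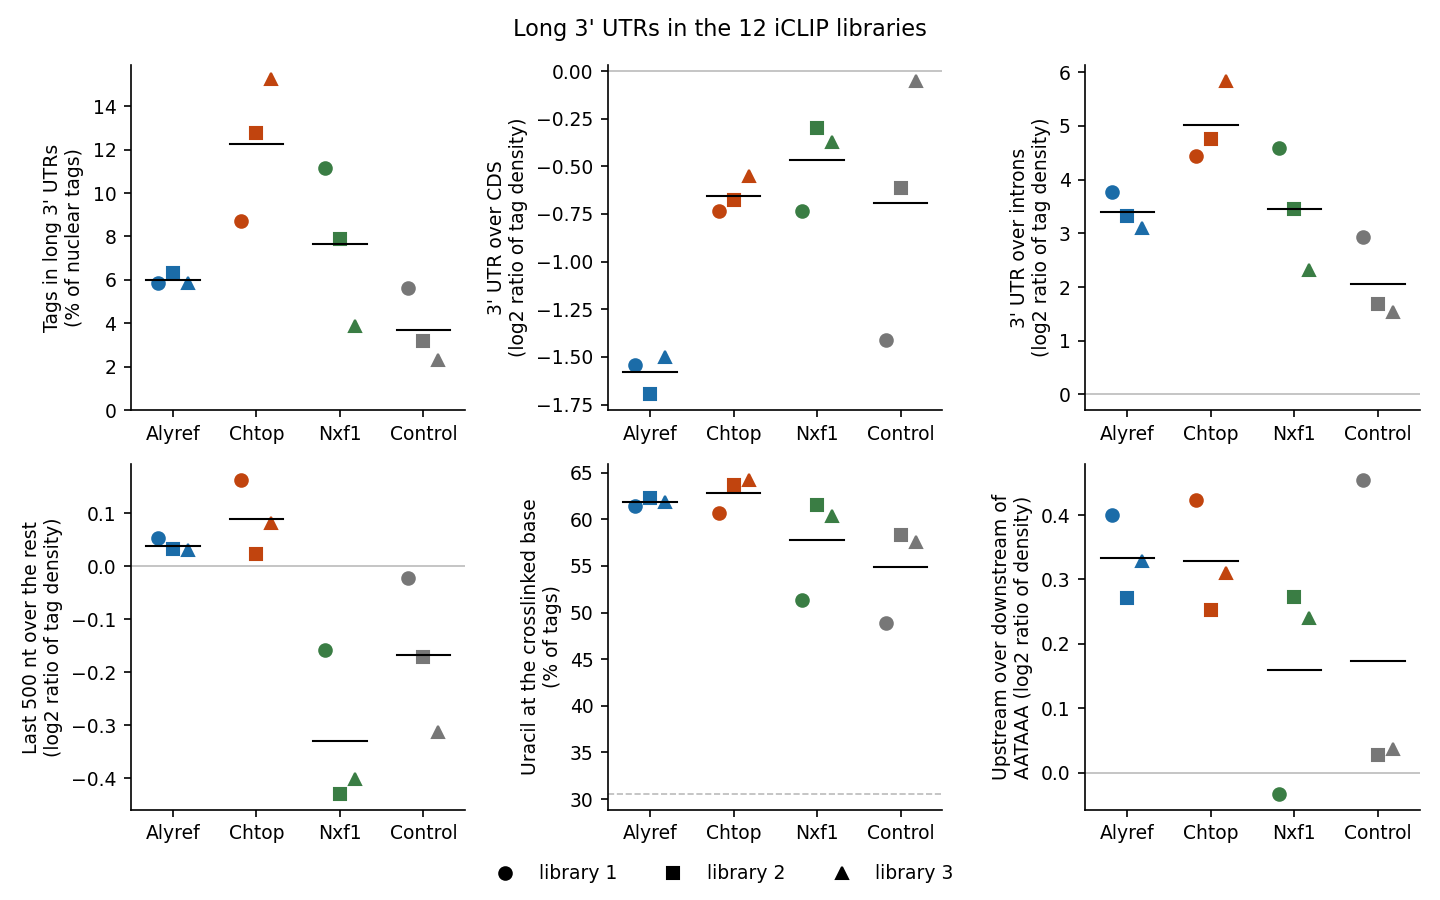
Each panel plots 1 measure of long 3′ UTRs on the vertical axis for the 12 libraries by group, with a marker for each library number and a bar for the group mean. The share of tags is highest in Chtop at 8.73 to 15.3%, and the 3′ UTR against CDS density is lowest in Alyref, between −1.70 and −1.50.

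Set against the CDS of the same transcripts, long 3′ UTRs were poor in Alyref tags. The log2 ratio of tag density, 3′ UTR over CDS, was −1.54, −1.70 and −1.50 in the Alyref libraries, −0.73, −0.68 and −0.55 in Chtop, −0.73, −0.30 and −0.37 in Nxf1 and −1.41, −0.61 and −0.050 in Control. The 3 Alyref libraries lay below every other library, with a difference of −1.02 from the 6 libraries of Chtop and Nxf1 (exact permutation p = 0.0119, the smallest possible, adjusted p = 0.0952) and of −0.89 from Control (exact permutation p = 0.1), or −1.25 without Control library 1 and −0.57 without Control library 3. The tags were pooled over all members, so transcripts with many tags weighed most in this ratio. Nxf1 was higher than the other factors by 0.65 (exact permutation p = 0.0476, adjusted p = 0.143). Chtop differed from Control by 0.035 (exact permutation p = 0.9), less than the spread of the Control libraries (SD 0.68), and without Control library 1 that difference was −0.32.

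Against the introns of the same genes, long 3′ UTRs were dense in tags in all 12 libraries. The log2 ratio of 3′ UTR over intron density was 3.77, 3.33 and 3.10 with Alyref, 4.44, 4.76 and 5.84 with Chtop, 4.59, 3.45 and 2.31 with Nxf1 and 2.93, 1.69 and 1.54 with Control. Chtop exceeded the other factors by 1.59 (exact permutation p = 0.0238, adjusted p = 0.114). Alyref exceeded Control by 1.35 and Chtop exceeded it by 2.97, both without overlap (exact permutation p = 0.1 each). Nxf1 library 3 lay below Control library 1, so Nxf1 and Control overlapped.

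Within the long 3′ UTRs the mean density against the CDS was lower in the longest class than in the shortest in every group. For the 2240 members of 2000 to 3000 nt the mean log2 ratio was −1.15 ± 0.11 with Alyref, −0.11 ± 0.09 with Chtop, −0.16 ± 0.10 with Nxf1 and −0.39 ± 0.30 with Control (SD, n = 3). The 1340 members of 3000 to 4000 nt stood at −1.34, −0.22, −0.23 and −0.39, in the same order. The 1243 members of 4000 to 6000 nt stood at −1.63, −0.91, −0.48 and −0.79, and the 812 members over 6000 nt at −2.14, −1.36, −0.92 and −1.08. Over 6000 nt the SD was 0.14 with Alyref, 0.11 with Chtop, 0.55 with Nxf1 and 1.03 with Control. The Control libraries ranged there from −2.22 to −0.21, so the fall in the Control mean lay within their spread. The Control mean did not fall between the classes of 2000 to 3000 and 3000 to 4000 nt. Medium UTRs of 500 to 1000 nt were at −0.75, 0.29, 0.18 and 0.02, above the long classes in each group.

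**Figure D2:**
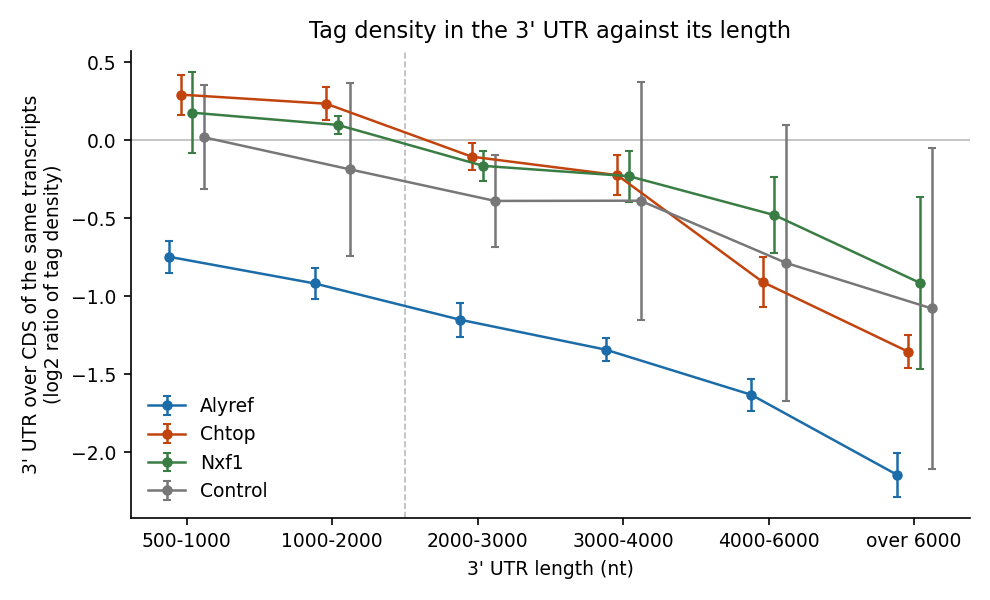
The horizontal axis gives classes of 3′ UTR length in nt and the vertical axis the log2 ratio of tag density, 3′ UTR over CDS of the same transcripts, as group mean with SD over 3 libraries. The dashed line separates medium from long UTRs, and the Alyref line lies lowest in all classes, ending at −2.14 for UTRs over 6000 nt.

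The difference in this ratio between long and medium UTRs was −0.70, −0.72 and −0.69 (log2) in the Alyref libraries, −0.93, −0.84 and −0.94 in Chtop, −0.99, −0.37 and −0.39 in Nxf1 and −0.75, −0.56 and −0.36 in Control. All 12 values were negative. The Chtop libraries were all below the Control libraries, with a difference of −0.35 (exact permutation p = 0.1), but Nxf1 library 1 lay lower still. None of the 6 comparisons of this measure passed after adjustment. Without Nxf1 library 1, Nxf1 exceeded the other factors by 0.42 (exact permutation p = 0.0357, not adjusted).

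The counted sequence, from 200 nt beyond the stop codon to the transcript end, was cut into 10 equal bins. The bases next to the stop codon were thus not covered. Tags were densest in bin 1, the bin nearest to the stop codon. Relative to a mean of 1, bin 1 stood at 1.59 ± 0.0621 with Alyref and 1.58 ± 0.0155 with Chtop. It stood at 1.54 ± 0.0770 with Nxf1 and 1.70 ± 0.195 with Control (SD, n = 3). Bin 8 was at 0.794, 0.800, 0.767 and 0.727. In bin 10, at the transcript end, Alyref was at 0.903 ± 0.00930 and Chtop at 0.924 ± 0.0641, while Nxf1 was at 0.720 ± 0.0366 and Control at 0.814 ± 0.0695. The group means of Alyref, Chtop and Control were thus higher in bin 10 than in bin 8, and that of Nxf1 was not. Medium UTRs had a flatter start and a lower end, with bin 1 at 1.18 and bin 10 at 0.654 with Alyref, and 1.18 and 0.573 with Chtop.

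**Figure D3:**
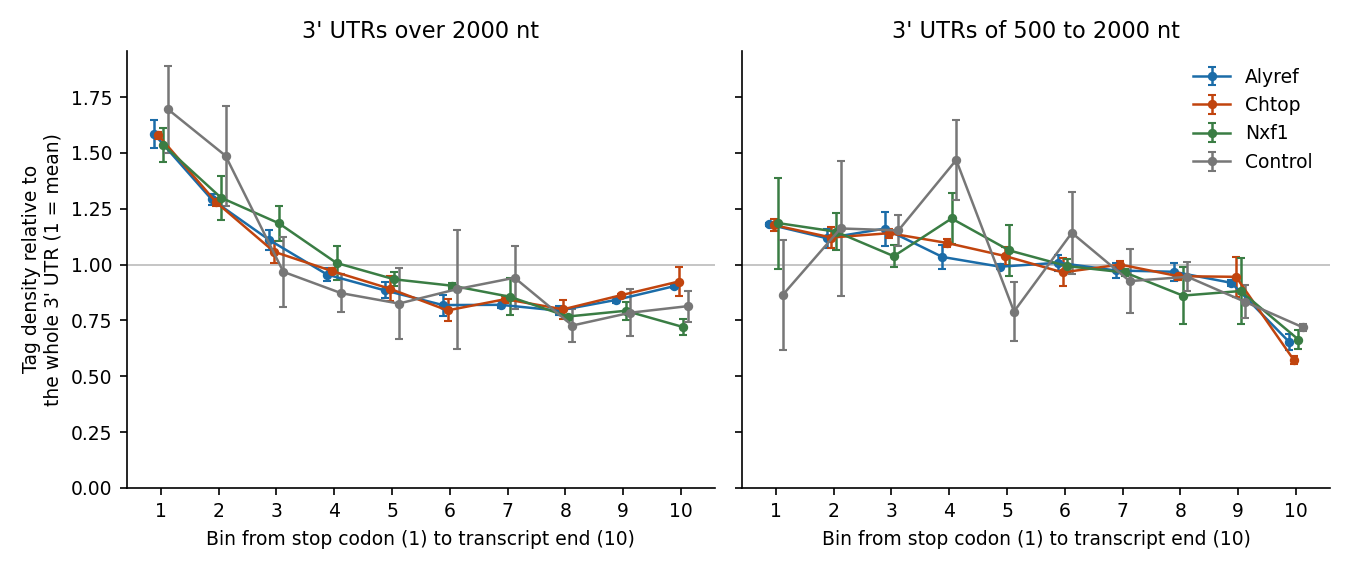
Tag density in 10 equal bins, from 200 nt beyond the stop codon (1) to the transcript end (10). Long UTRs and medium UTRs are in separate panels. Density is relative to the mean of the binned part of the 3′ UTR, as group mean with SD over 3 libraries. In long UTRs all groups fall from 1.54 to 1.70 in bin 1, and in bin 10 Alyref (0.903) and Chtop (0.924) lie above Nxf1 (0.720).

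Beyond 200 nt from the stop codon, the part distal to the midpoint held fewer tags per base than the proximal part in all 12 libraries. The log2 ratio of distal over proximal density was −0.52, −0.47 and −0.45 with Alyref, −0.46, −0.47 and −0.42 with Chtop, −0.56, −0.58 and −0.55 with Nxf1 and −0.61, −0.47 and −0.40 with Control. The 3 Nxf1 libraries were below the 6 libraries of the other factors, with a difference of −0.096 (exact permutation p = 0.0119, adjusted p = 0.0952). Against Control the difference of −0.069 was smaller than the spread of the Control libraries (exact permutation p = 0.4), and it was −0.13 without Control library 1 (exact permutation p = 0.1).

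The last 500 nt separated Nxf1 from the other factors more widely. The log2 ratio of density in the last 500 nt over the rest of the UTR was 0.05, 0.03 and 0.03 with Alyref, 0.16, 0.02 and 0.08 with Chtop, −0.16, −0.43 and −0.40 with Nxf1 and −0.02, −0.17 and −0.31 with Control. Each Nxf1 library was below each Alyref and Chtop library, with a difference of −0.39 (exact permutation p = 0.0119, adjusted p = 0.0952), or −0.48 without Nxf1 library 1. Alyref and Chtop were above Control without overlap, by 0.21 and 0.26 (exact permutation p = 0.1 each), and the former was 0.14 without Control library 3. Nxf1 overlapped Control (difference −0.16, exact permutation p = 0.3), with a difference of −0.25 without Nxf1 library 1 and −0.088 without Control library 1.

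The annotated ends were also ends of the tags. In 4072 members with no gene on the strand in the 500 nt beyond the end, Alyref had 730 tags in those 500 nt and 7145 in the last 500 nt of the UTR, a log2 ratio of −3.33 ± 0.10 (SD, n = 3). Chtop had 595 against 12611 tags (−4.10 ± 0.70), Nxf1 had 242 against 1220 (−2.72 ± 0.87) and Control had 76 against 203 (−2.00 ± 1.45). The ratio was negative in all groups, with the widest spread in Control.

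Individual UTRs departed far from the average profile. In the 161 members with at least 200 factor tags, the share of tags distal to the midpoint had quartiles of 38.7, 46.7 and 53.2%, and it exceeded 50% in 64 of them. Its range was 1.11 to 79.3%. Across the 294 members with at least 50 tags in each of Alyref and Chtop, the distal shares of the 2 factors had a Pearson r of 0.859, given as a description since the UTRs share libraries and sequence. The tags of 3 members nearly stopped inside the UTR, and 3 others had the highest distal shares.

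For these 6 UTRs, the first AATAAA or ATTAAA at or after the base by which 95% of the factor tags lay is shown in capitals, in windows of 30 nt on the transcript strand (GRCh37). The first 3 are internal and the last 3 lie at the annotated end. This rule was chosen after the values were seen, and it places 95% of the factor tags before the hexamer by construction.
HP1BP3: ttgaaaaatatgAATAAAcatgaaatttta
NEK9: atttctgttttaAATAAAcatttaagctct
WSB1: ttgagttttttaATTAAAgacttgtaaaaa
MAPKAPK5: aatccaaaaacaAATAAAacccgattcata
DDX17: tttgtaggtataAATAAAaacactgttgac
OTUD3: gttttgtataccAATAAAttctagtttaaa
HP1BP3, a chromatin protein that binds heterochromatin protein 1, has a UTR of 4531 nt, and its hexamer (window chr1:21069178-21069207, −) starts 2095 nt from the stop codon. Up to this hexamer the UTR held 17, 133 and 100 Alyref tags, and after it 0, 1 and 2. Chtop had 13, 225 and 207 tags before and 0, 3 and 2 after, Nxf1 had 14 before and 1 after in all, and Control had 5 before and 0 after. The Control tags, which the rule did not use, also lay before the hexamer. After it came 2437 nt of the annotated UTR, with 7 further AATAAA or ATTAAA hexamers. In NEK9, a mitotic kinase (window chr14:75548827-75548856, −), the hexamer is 2423 nt into a UTR of 5211 nt, with 58 Alyref tags before and 3 after, 154 and 4 with Chtop, 4 and 0 with Nxf1 and 1 and 0 with Control. In WSB1, a substrate receptor of a ubiquitin ligase (window chr17:25640621-25640650, +), it is 1238 nt into 3557 nt, with 56 and 4 Alyref tags, 194 and 7 Chtop tags, 6 and 1 Nxf1 tags and none in Control.

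At the other extreme, OTUD3, a deubiquitinase with a UTR of 5199 nt, had 79.3% of its factor tags distal to the midpoint, DDX17 had 74.5% and MAPKAPK5, a stress-activated kinase with a UTR of 9161 nt, had 69.5%. Their hexamers start 5176 nt (OTUD3, window chr1:20239403-20239432, +), 2475 nt (DDX17, window chr22:38879448-38879477, −) and 9136 nt (MAPKAPK5, window chr12:112339989-112340018, +) from the stop codon. OTUD3 held 6, 40 and 33 Alyref tags, 3, 64 and 80 Chtop tags, 0, 3 and 3 Nxf1 tags and 0, 1 and 0 Control tags over its UTR. MAPKAPK5 held 4, 40 and 30 Alyref tags, 5, 65 and 56 Chtop tags, 1, 13 and 6 Nxf1 tags and 0, 3 and 0 Control tags. Distal to its midpoint lay 54.1% of its Alyref tags, 81.7% of its Chtop tags and 50% of its Nxf1 tags. In the 161 members, 95% of the factor tags lay within the first 94.1% of the UTR at the median, and within 34.2% at the lowest. This point came before 75% of the length in 18 members. In 8 of the 18 (44.4%) an AATAAA or ATTAAA lay in the 100 nt that follow, against 18.2% of positions taken every 50 nt in the same UTRs. These 8 include HP1BP3, NEK9 and WSB1, shown above, so the count is a description and no separate support.

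**Figure D4:**
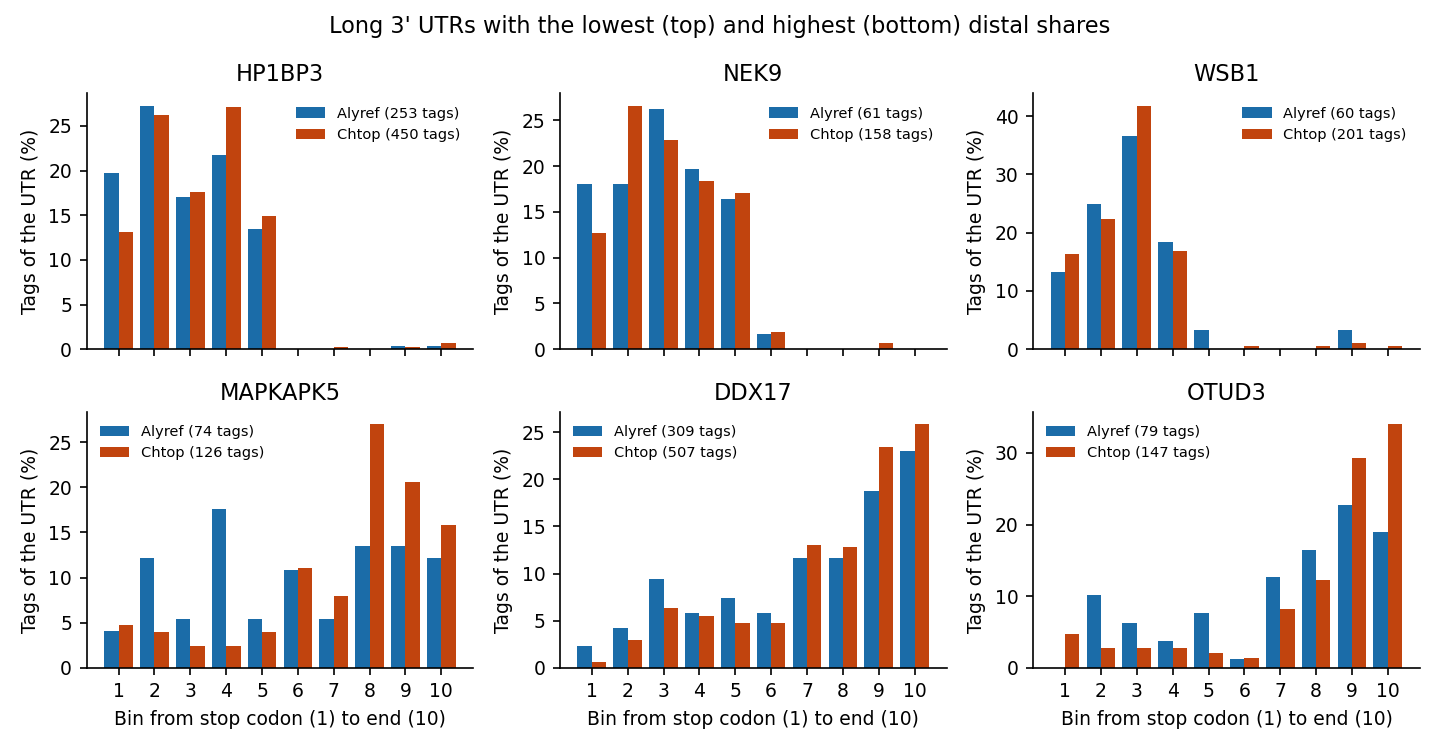
Percent of a UTR's Alyref or Chtop tags in each of 10 bins from the stop codon (1) to the end (10) for 6 members. Tags in the first 200 nt were not counted, so bin 1 holds less counted sequence than the other bins, least in DDX17. HP1BP3, NEK9 and WSB1 (top, distal shares of 1.11 to 2.99%) hold nearly all tags in the first bins. MAPKAPK5, DDX17 and OTUD3 (bottom) have distal shares of 69.5 to 79.3% over the pooled factor tags. Their tags lean to the last bins, except that the Alyref tags of MAPKAPK5 are spread over the UTR.

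The 3 longest members were sparsely covered. SMAD2, a mediator of TGF-beta signalling, has the longest UTR at 32870 nt (chr18:45335328-45368197, −) and held 4, 17 and 4 Alyref tags, 0, 23 and 15 Chtop tags, 0, 8 and 3 Nxf1 tags and 0, 2 and 0 Control tags. Only 13.5% of its factor tags were distal to the midpoint. FLRT2, a cell adhesion protein with a UTR of 30931 nt, held 1 tag and GRIN2B, a glutamate receptor subunit with a UTR of 25446 nt, held 2 tags. Neither had a CDS tag in any library.

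Internal AATAAA hexamers were frequent. They occurred in 4242 members (75.3%), at 15462 sites and with a median of 2 per member, at least 500 nt from the stop codon and from the end. In the last 50 nt, AATAAA was present in 68.6% of members and AATAAA or ATTAAA in 84.3%, against 64.8 and 79.1% of medium UTRs. In 50-nt windows inside the members AATAAA was present in 3.61%. Only the sense strand was searched, and a match is a letter match, not a used site.

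Over these internal sites the tag density fell downstream of the hexamer. From 200 to 100 nt upstream it stood at 0.937 ± 0.0456 of the mean of all long 3′ UTRs with Alyref and 0.922 ± 0.0227 with Chtop. From 100 to 200 nt downstream it was 0.715 ± 0.0147 and 0.706 ± 0.0556 (SD, n = 3). Tags in the 200 nt upstream, set against those in a 200-nt window that starts 50 nt downstream, gave a log2 ratio of 0.40, 0.27 and 0.33 in the Alyref libraries, 0.42, 0.25 and 0.31 in Chtop, −0.03, 0.27 and 0.24 in Nxf1 and 0.45, 0.03 and 0.04 in Control. It was above 0 in 11 of 12 libraries, and the exception, Nxf1 library 1, was among the shallowest. Positions taken every 50 nt in the same UTRs gave a ratio of 0.08 with Alyref, 0.07 with Chtop, 0.07 with Nxf1 and 0.09 with Control. All Alyref and Chtop libraries were thus above their positional reference, while Nxf1 library 1 and Control libraries 2 and 3 were below theirs. Around AAATAA, a hexamer of the same base composition, the ratio was 0.18 with Alyref and 0.24 with Chtop, and around ATTAAA it was 0.15 and 0.13. AAATAA and AATAAA can overlap in sequence, and such sites were kept in both counts.

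Nxf1 differed from the other factors in this ratio by −0.17 (exact permutation p = 0.0357, adjusted p = 0.122). The difference was −0.074 without Nxf1 library 1 (exact permutation p = 0.179) and 0.0066 with windows of 100 nt, so it rested on that library and on the window. Around the most proximal AATAAA of each UTR the ratio was 0.40 ± 0.04 with Alyref, 0.32 ± 0.04 with Chtop, 0.28 ± 0.14 with Nxf1 and 0.55 ± 0.60 with Control. The Control value came from 127 tags upstream and 89 downstream.

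**Figure D5:**
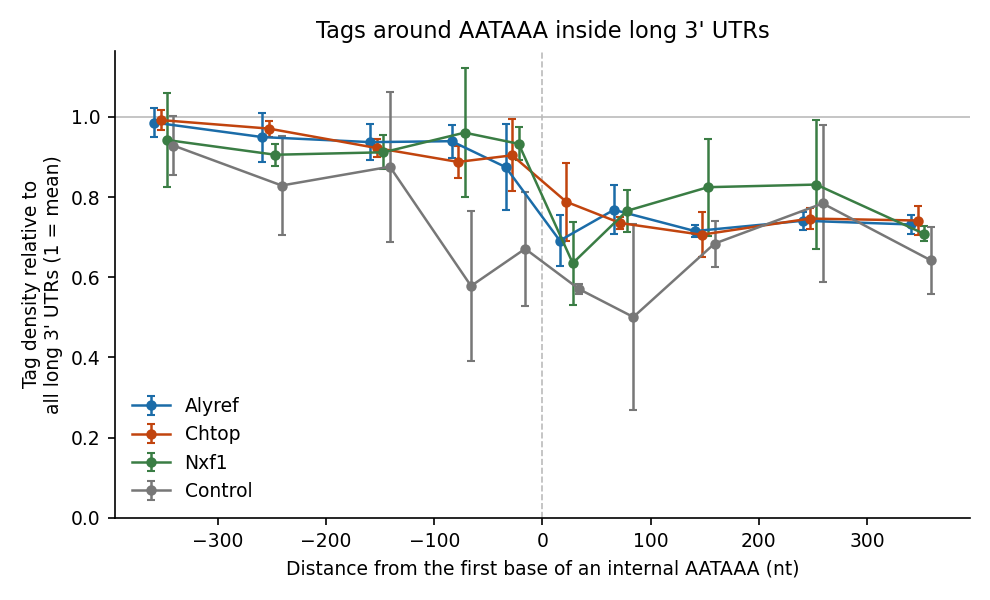
Tag density around internal AATAAA hexamers of long 3′ UTRs, against the distance in nt from the first base of the hexamer. Density is relative to the mean of all long 3′ UTRs, as group mean with SD over 3 libraries. Alyref and Chtop go from 0.986 and 0.992 at 400 to 300 nt upstream to 0.715 and 0.706 at 100 to 200 nt downstream.

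The crosslinked base in long 3′ UTRs was most often a U. U made up 61.4, 62.3 and 61.9% of crosslinked bases in the Alyref libraries, 60.6, 63.7 and 64.2% in Chtop, 51.4, 61.5 and 60.4% in Nxf1 and 48.9, 58.3 and 57.5% in Control, against 30.5% of the sequence of the members. Alyref and Chtop were above Control without overlap, by 6.95 and 7.94 points (exact permutation p = 0.1 each), or by 3.93 and 4.91 points without Control library 1. Nxf1 minus the other factors gave −4.58 points (exact permutation p = 0.0357, adjusted p = 0.122), and −1.39 points without library 1 (exact permutation p = 0.214). Tags lay within 5 nt of a run of at least 5 U in 21.6% ± 0.399 (Alyref), 20.0% ± 0.658 (Chtop), 21.8% ± 1.39 (Nxf1) and 26.4% ± 2.08 (Control) of cases (SD, n = 3), while 5.96% of positions in the members did. Members cut into 3 groups by U content, each of 1878 or 1879 UTRs, differed little in the log2 ratio of 3′ UTR over CDS density, at −1.56, −1.59 and −1.53 with Alyref and −0.62, −0.64 and −0.63 with Chtop from the lowest to the highest U content.

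Counts per UTR were then compared between Chtop and Alyref with edgeR's quasi-likelihood test over 8959 transcript regions, of which 2265 were long 3′ UTRs. A region is the 5′ UTR, the CDS, the first 200 nt of the 3′ UTR or its remainder. A fold change between Chtop and Alyref is relative to all such regions. Chtop was higher in 492 members (21.7% of those tested) and lower in 21 (0.927%), against 11.8% of all regions higher and 17.6% lower. The median log2 difference was 0.67 over members and 0.06 over all regions, with 1902 members above 0. Other 3′ UTRs beyond 200 nt from the stop codon behaved much like the members (1223 tested, 256 higher, 12 lower, median 0.78), and CDS went the other way (4821 tested, 1466 lower, median −0.65). The counts rested on the deeper libraries 2 and 3. Without Alyref library 2 or 3 the members higher numbered 105 or 165 and those lower 6 or 5, without Chtop library 2 or 3 they numbered 224 or 169 higher and 12 or 2 lower, and DESeq2 called 44 and 1.

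The largest increases called were in MINAR1, P2RY1 and ZMIZ1. MINAR1, a membrane protein linked to NOTCH2 (UTR chr15:79760727-79764646, +), had 1 Alyref tag in each library and 1, 15 and 23 Chtop tags, a log2 difference of 3.32 (SE 0.71, edgeR adjusted p = 0.000126). P2RY1, a purinergic receptor (chr3:152554694-152559228, +), had 0, 4 and 3 Alyref tags and 0, 16 and 59 Chtop tags (log2 difference 3.18, SE 0.55, edgeR adjusted p = 1.32e-06). Its Chtop libraries 2 and 3 differed widely, and without library 3 the adjusted p was 0.0921. ZMIZ1, a transcriptional coregulator (chr10:81072507-81076276, +), had 0, 3 and 2 Alyref tags and 0, 14 and 29 Chtop tags (log2 difference 2.83, SE 0.63, edgeR adjusted p = 0.000225), and without Chtop library 3 its adjusted p was 0.0762. DESeq2 gave adjusted p of 0.0717 for P2RY1 and 0.0989 for ZMIZ1. The CDS tags of MINAR1 also rose, from 0, 0 and 1 with Alyref to 1, 13 and 8 with Chtop. Those of P2RY1 went from 0, 4 and 1 to 0, 9 and 14. In MINAR1 and P2RY1 the increase was therefore not in the 3′ UTR alone.

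The largest decreases called were in RAD18, RGP1 and FAM219B. RAD18, a ubiquitin ligase of DNA damage tolerance (chr3:8918759-8923040, −), had 1, 10 and 15 Alyref tags and 0, 5 and 2 Chtop tags (log2 difference −1.91, edgeR adjusted p = 0.0182). RGP1, part of a guanine nucleotide exchange factor at the Golgi, had 0, 14 and 10 Alyref and 0, 4 and 3 Chtop tags (−1.76, edgeR adjusted p = 0.031). FAM219B had 4, 23 and 18 Alyref and 2, 6 and 6 Chtop tags (−1.73, edgeR adjusted p = 0.00618), and its CDS fell too, from 5, 24 and 24 to 0, 7 and 4 tags. None of the 3 kept an adjusted p under 0.05 with every library left out in turn, the highest being 0.203 for RAD18, 0.201 for RGP1 and 0.0839 for FAM219B.

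Each 3′ UTR was then compared with all tested regions of its own transcript, itself included (edgeR diffSpliceDGE, 5625 regions tested, 1488 of them members). A shift is the log2 change of the 3′ UTR minus that of the whole transcript. It is thus smaller than a change against the CDS, the more so where the UTR holds most tags. Between Chtop and Alyref, 119 members (7.997% of those tested) shifted towards the 3′ UTR and 0 shifted away, against 5.08% and 5.33% of all regions. The median over members was 0.51 against 0.02 over all regions, 1228 members were above 0, and 353 had an unadjusted p under 0.05. Other 3′ UTRs beyond 200 nt from the stop codon shifted more often and further (948 tested, 144 higher, 0 lower, median 0.80). The first 200 nt of 3′ UTRs had a median of 0.61 (220 tested, 19 higher, 1 lower). CDS went the other way (2571 tested, 0 higher, 256 lower, median −0.48), so the shift was not particular to long 3′ UTRs. Without Alyref library 2 or 3 the count of 119 fell to 1 or 8, and without Chtop library 2 or 3 to 23 or 10. It was 153 with the library number as a replicate block.

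UBR1, a ubiquitin ligase of the N-degron pathway (chr15:43235095-43237526, −), shifted by 2.25 (log2, SE 0.55, edgeR adjusted p = 0.00258), with 1, 7 and 3 UTR tags against 6, 78 and 58 CDS tags in Alyref and 0, 22 and 17 against 2, 41 and 25 in Chtop. WRN, the helicase mutated in Werner syndrome (chr8:31030619-31033654, +), shifted by 2.25 (SE 0.47, edgeR adjusted p = 0.000336), from 2, 5 and 11 UTR tags beside 9, 108 and 92 CDS tags to 3, 28 and 28 beside 3, 56 and 30. In both genes the UTR tags of Chtop libraries 2 and 3 were higher than those of Alyref while their CDS tags were lower. URB1, a ribosome biogenesis factor (chr21:33683329-33687228, −), shifted by 2.17 (SE 0.47, edgeR adjusted p = 0.000592), from 0, 10 and 7 UTR tags beside 19, 174 and 118 CDS tags to 1, 33 and 25 beside 2, 104 and 93. ESYT2, a lipid transfer protein at membrane contacts (chr7:158523688-158526897, −), shifted by 2.17 (SE 0.52, edgeR adjusted p = 0.00206), from 0, 5 and 5 UTR tags beside 3, 29 and 17 CDS tags to 2, 31 and 39 beside 1, 6 and 9. SNX13, a sorting nexin (2.21, edgeR adjusted p = 0.0248), and ACOT9, a mitochondrial acyl-CoA thioesterase (2.08, edgeR adjusted p = 0.0292), completed the 6 largest shifts. Leaving out 1 library raised the adjusted p of each of the 6 above 0.05 at least once, to between 0.0526 for URB1 and 0.257 for ACOT9.

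In IRS4, the densest member, the UTR count was higher with Chtop (log2 difference 1.08, SE 0.27, edgeR adjusted p = 0.000797) but its tags did not pass within the transcript (−0.26, SE 0.24, edgeR adjusted p = 0.5). Its CDS tags were also high, at 61, 428 and 351 with Alyref and 103, 1191 and 1429 with Chtop. Of the UTRs whose tags ended inside, NEK9 (1.02, SE 0.32, edgeR adjusted p = 0.0259) and WSB1 (0.95, SE 0.32, edgeR adjusted p = 0.0345) shifted towards the 3′ UTR, and HP1BP3 had 0.46 (SE 0.26, edgeR adjusted p = 0.226).

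Between Chtop and Nxf1, 0 of the 1488 members passed within the transcript in either direction, against 0% of all regions higher and 0.0178% lower, and 36 members had an unadjusted p under 0.05. The median over members was −0.01. Between Alyref and Nxf1 again 0 passed, against 0% of all regions in each direction, with 62 at an unadjusted p under 0.05, a median of −0.46 and 340 members above 0. Within the transcript DESeq2 was not run. The Nxf1 libraries held 17194 tags in long 3′ UTRs, against 79976 with Alyref and 138273 with Chtop. Under other settings 2 members were lower in Alyref than in Nxf1 (filterByExpr), and 1 was lower in Chtop than in Nxf1 with the replicate block and also without Chtop library 1.

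Control held 2728 of the 238171 tags in long 3′ UTRs. Regions were tested on at least 30 tags over all 12 libraries, so members entered mostly through factor tags. That filter favours higher calls, so no conclusion is drawn from the balance of higher and lower calls against Control. Alyref was higher than Control in 28 members and lower in 1, against 6.06% of all regions higher and 0.0335% lower. An unadjusted edgeR p under 0.05 was found in 341 members. Leaving out 1 library brought the 28 to 8 or 7 (Alyref library 2 or 3) and to 4, 5 or 1 (Control library 1, 2 or 3). Chtop was higher in 215 members and lower in 1, against 6.67% and 0.0335%. The 215 became 74 or 120 without Chtop library 2 or 3 and 62, 52 or 45 without Control library 1, 2 or 3. Nxf1 was higher in 4 members and lower in 0, against 0.156% and 0% of all regions, with 463 at an unadjusted p under 0.05 and 16 called higher by DESeq2. The 4 became 17 without Nxf1 library 1, 0 without Nxf1 library 2, and 0, 1 and 0 without Control library 1, 2 and 3. Fold changes against Control came from the same fit and scaling, but their median over all regions was far from 0. This median log2 was 3.745 with Alyref, 3.605 with Chtop and 2.192 with Nxf1. Over members it was 2.946, 3.808 and 2.589, so the Alyref median was lower in members than in all regions. The Control libraries held only 1752, 4667 and 2085 tags over the 8959 tested regions. Many fitted values against Control thus depend on the prior count of the fit, and these medians are no measured folds.

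The called members with the largest fitted increases had no Control tag. Their order depends on the prior count of the fit and is no order of measured folds, which are lower bounds here against a floor of 3 tags over the Control group, per 1000000 nuclear tags. NSD3, a histone methyltransferase (chr8:38127222-38133158, −), held 9, 50 and 42 Alyref tags and 6, 154 and 141 Chtop tags, at least 2.31-fold and 8.92-fold higher. RCC2, a regulator of chromosome condensation and Rac1 (chr1:17733256-17735585, −), held 12, 81 and 63 Alyref and 6, 123 and 131 Chtop tags, at least 3.57-fold and 7.71-fold higher. ANKFY1, an endosomal Rab5 effector, held 10, 128 and 125 Chtop tags, at least 7.80-fold higher, and RC3H1 (roquin-1), which binds stem-loops in 3′ UTRs, held 4, 44 and 51 Alyref tags, at least 2.26-fold higher. The Alyref calls of NSD3 and RC3H1 were lost without Control library 1, 2 or 3, that of RC3H1 also without Alyref library 3 and that of RCC2 without Control library 3, with edgeR adjusted p between 0.0616 and 0.180. With filterByExpr the Alyref calls of NSD3 and RCC2 were lost too (edgeR adjusted p = 0.311 and 0.194). For Nxf1 the largest fitted increases were in DCP2, the mRNA decapping enzyme (1, 22 and 15 tags, at least 3.74-fold), SLC7A1, a cationic amino acid transporter (1, 21 and 10, at least 3.15-fold), and LNPEP, an aminopeptidase (0, 21 and 11, at least 3.15-fold). These 3 Nxf1 calls were lost without Nxf1 library 2, without Control library 1, 2 or 3, and without a filter on low counts.

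The single decreases against Control rested on few Control tags. FUBP1, which binds the far upstream element of MYC, held 3, 10 and 9 Chtop tags and 0, 8 and 2 Control tags (log2 difference −2.33, edgeR adjusted p = 0.034), and without Control library 2 it was −0.73 (edgeR adjusted p = 0.652). MTARC1, a mitochondrial molybdenum enzyme, held 0, 2 and 3 Alyref tags and 0, 6 and 0 Control tags (−3.53, edgeR adjusted p = 0.0207), and the fitted value turned to 3.23 (edgeR adjusted p = 0.576) without Control library 2, which held all of its Control tags.

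Gene lists were read for the members they contain. Their counts stand beside the 21.7% of all members tested that were higher in Chtop than in Alyref by count (0.927% lower) and the 7.997% that shifted towards the 3′ UTR within the transcript, against 11.8% and 5.08% of all regions, and nothing particular to a list was read from them. Of 36 genes for proteins that bind 3′ UTRs, 21 were members, and all 21 held Alyref and Chtop tags. Of the 19 tested between Chtop and Alyref, 5 were higher and 0 lower (median 0.42, against 0.67 over all members). Within the transcript 3 of 16 shifted towards the 3′ UTR: PUM2, a Pumilio repressor (1.51, SE 0.38, edgeR adjusted p = 0.00376), FMR1, the fragile X protein (1.16, SE 0.37, edgeR adjusted p = 0.026), and TIAL1 (1.05, SE 0.33, edgeR adjusted p = 0.0229). TIA1, the paralog of TIAL1 and like it a U-rich RNA binder, rose in count (1.70, SE 0.33, edgeR adjusted p = 1.7e-05), from 5, 31 and 28 to 7, 107 and 117 tags, but did not pass within the transcript (0.62, SE 0.31, edgeR adjusted p = 0.177). CELF1, a GU-rich element binder, and IGF2BP1, an mRNA-stabilising protein, stood at −0.09 and −0.02 in the same comparison of counts.

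Of 21 microRNA pathway genes, 13 were members and all 13 were tested, with 3 higher (AGO4, PAN3 and TNRC6A) and 0 lower, and 0 of 11 passed within the transcript. AGO2, the slicing Argonaute, has a UTR of 11888 nt and held 11, 46 and 52 Alyref tags, 4, 82 and 72 Chtop tags, 2, 21 and 15 Nxf1 tags and 1, 0 and 1 Control tags. AGO1 (10925 nt) held 4, 40 and 40, then 1, 38 and 33, then 1, 12 and 4, and 0, 3 and 0. DICER1, the enzyme that cuts microRNA precursors, and TNRC6A, an Argonaute partner, had log2 differences in count of 0.65 (edgeR adjusted p = 0.135) and 0.91 (edgeR adjusted p = 0.0333) between Chtop and Alyref.

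Of 33 genes of the cell cycle and growth signalling, 24 were members and 20 were tested, with 4 higher in Chtop (E2F3, IGF1R and INSR among them) and 0 lower, and 0 of 15 passed within the transcript. MDM4, an inhibitor of p53, held the most tags of this list, with 9, 180 and 121 with Alyref, 14, 164 and 132 with Chtop, 0, 17 and 21 with Nxf1 and 2, 3 and 0 with Control, and its counts did not differ between Chtop and Alyref beyond error (0.01, SE 0.28). MDM2, its partner, held 9, 86 and 68 and then 2, 127 and 109 (0.38, SE 0.29, edgeR adjusted p = 0.325). E2F3, a cell cycle transcription factor, rose by 1.04 (SE 0.33, edgeR adjusted p = 0.0115) and IGF1R, a growth factor receptor, by 0.99 (SE 0.34, edgeR adjusted p = 0.0188).

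Of 29 nuclear transport genes, 13 were members and 12 were tested by count, with KPNA1 higher (1.14, edgeR adjusted p = 0.0283) and KPNA6 lower (−1.43, SE 0.40, edgeR adjusted p = 0.00392). Both encode importin alpha adaptors. Within the transcript all 11 tested were above 0, as were 1228 of the 1488 members, with a median of 0.93 against 0.51 over all members, and 3 passed: the importins IPO7 (1.41, SE 0.45, edgeR adjusted p = 0.026) and IPO5 (1.14, SE 0.38, edgeR adjusted p = 0.032) and the tRNA exporter XPOT (1.30, SE 0.42, edgeR adjusted p = 0.0293). IPO9 held the most tags of the list (7, 44 and 38 with Alyref, 4, 57 and 53 with Chtop) and stood at 0.87 (SE 0.32, edgeR adjusted p = 0.0554). NUP50 and XPO4 had 0.81 and 0.38 by count, with edgeR adjusted p of 0.0797 and 0.431.

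Of 25 genes of 3′ end formation, 8 were members, and 0 of 6 tested by count and 0 of 3 tested within the transcript passed between Chtop and Alyref. NUDT21, a cleavage factor subunit, had all of its 18 Alyref and 9 Chtop tags distal to the midpoint. PAPOLG, a poly(A) polymerase, had 8.33% of its Alyref tags and 6.25% of its Chtop tags there, and PAPOLA, CPSF2 and PPP1CB had 54.5, 20.8 and 19.1% of their factor tags there. The counts in this list were low, with 90 tags at most (PAPOLA).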

How the data were processed

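The deposited BED files hold, per library, crosslinked bases with counts of deduplicated reads (tags), which the authors made with Bowtie 1.1.2, STAR 2.4.2a and UMI-tools 0.5.3 per the labels, in hg19 coordinates. The 32 lane runs of the series had been merged into 12 libraries. Tags on chrM were left out of library totals. GENCODE annotation lifted to GRCh37 gave 20163 canonical transcripts of protein-coding genes (Ensembl canonical, or the longest CDS in 282), and 364 long 3′ UTRs whose stop codon is not in the last exon were left out. In the 650 members overlapping another gene on the strand the shared bases were not counted, and 5 Y-chromosome copies without sequence were kept for tags. Python 3.11.15, numpy 2.4.6 and pandas 2.3.3 gave 1 value per library and measure, and groups were compared by two-sided exact permutation tests with Benjamini-Hochberg adjustment over 24 tests in each family (factors, and factors against Control). Ratios used a pseudocount of 0.5 tags.

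Counts per region with at least 30 tags over the 12 libraries were tested with edgeR 4.0.16 (glmQLFTest, TMM, diffSpliceDGE, R 4.3.3), and DESeq2 1.42.0 was an alternative. Library sizes in edgeR were the tags in tested regions. SE values are the log2 difference divided by the square root of F. Genes were named by rule: the 12 densest members, the 6 largest shifts and 3 largest changes in each direction per comparison among calls at adjusted p under 0.05, 4 members per gene list with most tags, the 3 longest, and the 3 highest and 3 lowest distal shares. Further names beside these, such as the list members called, were chosen after their values were seen. The members and lists were chosen with earlier results of these data known. Sequences are from the GRCh37 reference. The steps were tested on simulated data. Some items, 1 sequence among them, are not reported here.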

Additional observations from a re-analysis of the deposited data

How the results depend on the processing

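Library 1 of each group and all Control libraries were shallow, which limits their precision. Of 252 values of the 8 per-library measures under other settings, 233 kept their direction and their side of an unadjusted exact permutation p of 0.05, and of 360 values with 1 library left out 307 did. None of the 24 comparisons between factors had an adjusted p under 0.05 to begin with. Causes were not tested.

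Permutation within library number (replicate block) left the differences at 5.43 (share of tags, Chtop against the other factors), 0.65 (3′ UTR over CDS, Nxf1), 1.59 (3′ UTR over intron, Chtop) and −0.17 (AATAAA ratio, Nxf1), with p of 0.0741, 0.0741, 0.0741 and 0.111. Libraries of the same number did not deviate together (r of −0.0116 to 0.0533 over 18 pairs, 0 above 0.1), although 8 of 12 libraries correlated best with one of their own number, so the numbers were not taken to pair the samples. The block also gave 1 member lower for Chtop against Nxf1 within the transcript, and it changed no other count by over 1.5 times.

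With UTRs weighted equally, 3′ UTR over CDS was 0.67 (exact permutation p = 0.0714) for Nxf1 against the other factors and −0.14 for Chtop against Control, distal over proximal was −0.068 and −0.066 for Alyref and Chtop against Control, and the last 500 nt gave 0.27 for Nxf1 against Control. With UTRs over 3000 nt alone, Chtop against Control was −0.070 in 3′ UTR over CDS, and Nxf1 against Control was 0.018 in distal over proximal and 0.11 in the last 500 nt. Without members overlapping another gene, distal over proximal was −0.0093 for Alyref against Control and the long-to-medium difference −0.0083 for Alyref against the other factors. Without the 20 members with most tags the former was −0.0090. With whole 3′ UTRs, distal over proximal was 0.087 for Chtop against the other factors (exact permutation p = 0.0476). Windows of 100 nt around AATAAA gave −0.039 for Alyref and 0.0066 for Nxf1 against the other factors, and 0.23 for Nxf1 against Control.

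Leaving out 1 library at a time, the differences from the other factors ranged from 3.92 to 7.19 (Chtop), −5.14 to −2.86 (Alyref) and −3.25 to 0.37 (Nxf1) in share of tags. They ranged from 0.53 to 0.78 (Nxf1, 3′ UTR over CDS), 1.18 to 1.88 (Chtop, over intron), 0.056 to 0.083 (Chtop, distal over proximal), −0.011 to 0.11 (Alyref, long to medium), 0.11 to 0.42 (Nxf1, long to medium), −0.23 to −0.074 (Nxf1, AATAAA ratio), −6.47 to −1.39 (Nxf1, percent U) and −0.23 to 2.33 (Alyref, percent U). Against Control they ranged from −1.25 to −0.57 (Alyref), −0.32 to 0.36 (Chtop) and −0.14 to 0.54 (Nxf1) in 3′ UTR over CDS, −0.044 to 0.059 (Alyref), −0.015 to 0.088 (Chtop) and −0.13 to −0.022 (Nxf1) in distal over proximal, 3.93 to 8.66 (Alyref) and 4.91 to 9.64 (Chtop) in percent U, and −0.14 to 0.17, −0.085 to 0.13 and −0.16 to 6.05 for Nxf1 in long to medium, AATAAA ratio and percent U. Nxf1 and Control library 1 set many of these ends.

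Counts of members called moved most. Chtop against Alyref gave 51 higher and 2 lower without a filter on low counts, 70 and 2 with filterByExpr (chosen after seeing the data, 473 regions kept) and 44 and 1 with DESeq2, and 105 to 548 higher and 2 to 25 lower with 1 library left out. Within the transcript the 119 became 7 without a filter and 9 with filterByExpr, and 1 to 135 (0 to 1 lower) with 1 library left out. Alyref against Control gave 13 and 0 without a filter, 0 and 2 with filterByExpr, and 1 to 31 and 0 to 1 with 1 library left out. Chtop against Control gave 8 higher and 3 lower with filterByExpr, 0 lower without a filter and with DESeq2, and 45 to 261 and 0 to 1 with 1 library left out. Nxf1 against Control gave 0 higher without a filter, 0 higher and 1 lower with filterByExpr, 16 higher with DESeq2, and 0 to 17 with 1 library left out. Alyref against Nxf1 within the transcript gave 2 lower with filterByExpr, and Chtop against Nxf1 0 to 1 lower with 1 library left out. DESeq2 size factors in place of TMM moved no count by over 1.5 times and shifted the median of all regions by 0.13 (log2) in Nxf1 against Control. Of 88 values for named UTRs under other settings 72 kept their call and 16 lost it, and MTARC1 ranged from −4.14 to 3.23 with 1 library left out.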
